A study of Arabidopsis thaliana with 22 samples.

Results

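The H3K4me3 peaks described here were those of wild-type (WT) inflorescences that lay beside, and not on, the chromatin sites of ZMP in the chromosome arms. They numbered 992 of the 23884 H3K4me3 peaks on the 5 nuclear chromosomes and of the 22465 in the arms. They were chosen by the measured peak positions themselves. A ZMP site was a merged region called in both ZMP-HA libraries that touched no peak of the set B control plants, which carry no transgene, and there were 4709 sites. Overlap between libraries is a looser criterion than the reproducibility filter of the study, whose own set of ZMP peaks is smaller. A member was an H3K4me3 peak that shared no base with any ZMP-HA peak, had at most 1 kb between it and a ZMP site, and had its middle outside the pericentromeric windows. Their closeness to ZMP sites, their lack of a ZMP-HA peak and their H3K4me3 signal follow from this rule and are not results.

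All samples were inflorescences of Arabidopsis thaliana, ecotype Col-0, assayed by chromatin immunoprecipitation and sequencing (ChIP-seq). The NRPD1-HA libraries came from zmp-2 plants (2 libraries) and WT plants (2 libraries), both with the transgene pNRPD1::NRPD1-HA, and zmp-2 is a T-DNA insertion allele of ZMP. ZMP-HA was assayed in WT plants with pZMP::ZMP-HA (2 libraries). WT plants without a transgene served as controls, as set A beside NRPD1-HA and set B beside ZMP-HA (2 libraries each), and H3K4me3 was assayed in 1 library of WT plants without a transgene. The labels give no antibody for set A, although its samples are titled as immunoprecipitates. The HA tag was C-terminal, each transgene was driven by the gene's own promoter, and lines with 1 insertion were used. The methods place the HA lines in Col-0 and zmp-2, and elsewhere say that constructs were transformed into the matching mutants, so whether the native NRPD1 and ZMP genes were intact is not settled by the sources used here. Each genotype is, as far as described, 1 transgenic line, and line and genotype cannot be told apart. The labels do not say that replicates of a genotype were grown separately, so p-values measure the spread between these libraries only.

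ZMP carries a zinc finger, an MDM2/SWIB domain and a Plus-3 domain and interacts with RNA polymerase IV (Pol IV), a plant-specific polymerase whose largest subunit is NRPD1. Pol IV transcribes transposons and repeats, and its transcripts are turned into small interfering RNAs that guide DNA methylation (RNA-directed DNA methylation, RdDM). H3K4me3, the trimethylation of lysine 4 of histone H3, marks the first nucleosomes of transcribed genes and is generally low where RdDM acts.

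The deposited lists held 7012 and 8655 NRPD1-HA peaks on the nuclear chromosomes in zmp-2, 7250 and 7518 in WT, 7247 and 6730 ZMP-HA peaks, and 271 to 952 peaks in the 4 lists without a transgene. The usual background, which is the number of fragments per base expected by the peak caller over most of the genome, was 5.37 for H3K4me3 and 24.8 to 41 for the 6 HA-tagged libraries. Of the inflorescence marker genes, 7 of 10 had an H3K4me3 peak within 500 bases of their 5′ end, among them the floral organ identity genes AP1, PI, AG and SEP1 to SEP3, and AP3, LFY and SPL had none. Of the 5 root markers, 1 (RHD6), and of the 3 seed storage markers 0, had one. Of all protein-coding genes, 52.8% had such a peak.

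The windows shown first are the 300 bases before the annotated 5′ end of 2 genes named below whose H3K4me3 peak is a member, in both of which the edge of the ZMP site falls inside the window. Capitals mark the bases covered by the ZMP site, and lower case the bases between the site and the gene start. Each is written 5′ to 3′ on the strand of the gene, from the RefSeq TAIR10.1 genome, and no other annotated gene reaches into either of them. The windows are chr3:10781795-10782094 on the plus strand for AT3G28720 and chr5:20315090-20315389 on the plus strand for NFU2.
AT3G28720: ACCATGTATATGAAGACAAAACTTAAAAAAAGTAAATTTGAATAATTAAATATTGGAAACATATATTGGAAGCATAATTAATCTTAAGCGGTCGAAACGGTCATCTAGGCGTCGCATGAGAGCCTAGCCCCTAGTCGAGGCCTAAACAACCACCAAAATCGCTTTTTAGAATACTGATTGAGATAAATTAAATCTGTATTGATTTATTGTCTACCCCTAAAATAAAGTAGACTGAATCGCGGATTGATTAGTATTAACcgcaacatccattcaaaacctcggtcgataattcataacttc
NFU2: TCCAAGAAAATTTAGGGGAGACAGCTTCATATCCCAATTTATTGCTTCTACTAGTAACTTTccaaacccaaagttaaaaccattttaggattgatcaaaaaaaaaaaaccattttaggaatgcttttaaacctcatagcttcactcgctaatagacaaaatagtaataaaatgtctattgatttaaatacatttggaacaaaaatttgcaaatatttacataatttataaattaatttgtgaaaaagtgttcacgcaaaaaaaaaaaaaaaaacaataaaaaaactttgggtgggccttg

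The ZMP site covered 258 of the 300 bases at AT3G28720 and 61 at NFU2, and the bases outside it numbered 42 at AT3G28720 and 239 at NFU2. The letters TATAAA occurred on the printed strand of NFU2, last at position -75 counted from the 5′ end, and not in the window of AT3G28720. NFU2 encodes a plastid factor of iron-sulfur cluster assembly, and AT3G28720 an uncharacterized protein.

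Most members sat at the start of a gene, with the ZMP site on the far side of that start. Of the 992 members, 754 (76%, exact binomial 95% interval 73.2 to 78.6) lay within 500 bases of a protein-coding 5′ end, against 71.7% of the 21106 other arm peaks (71.1 to 72.3), which had neither a ZMP-HA peak on them nor a ZMP site within 1 kb. A closer set for comparison was the 814 arm H3K4me3 peaks within 1 kb of a WT Pol IV site, not on it, with no ZMP-HA peak within 1 kb, of which 76.7% lay at such a 5′ end (73.6 to 79.5). The members' share and that of the Pol IV-flanking peaks overlapped in their intervals. All intervals here cover counting error over regions only, and with 1 H3K4me3 library none of these shares has a replicate or a test.

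At the 754 members with a gene start, the middle of the ZMP site was upstream of that start on the gene's strand in 698 (92.6%, 90.5 to 94.3). For the Pol IV-flanking peaks the same share, taken to the Pol IV site, was 92.8% of 624 (90.5 to 94.7). The middle of the ZMP site was at a median of -794.5 bases from the 5′ end (quartiles -1119.5 and -559.0), and the H3K4me3 summit at a median of 307.0 bases downstream of it (quartiles 165.0 and 485.0). The summit was inside the transcribed side in 708 of the 754 (93.9%). The whole ZMP site was upstream of the gene in 650 (86.2%) and beyond its 3′ end in 14 (1.86%). The site covered the 5′ end in 50 (6.63%) and overlapped the gene without covering its 5′ end in 40 (5.31%). Where it was wholly upstream, its near edge was at a median of -351.0 bases from the 5′ end (quartiles -581.2 and -179.0 along the gene). The 5′ end itself fell between the ZMP site and the member in 486 (64.5%), and in the member in 162 (21.5%).

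**Figure D1:**
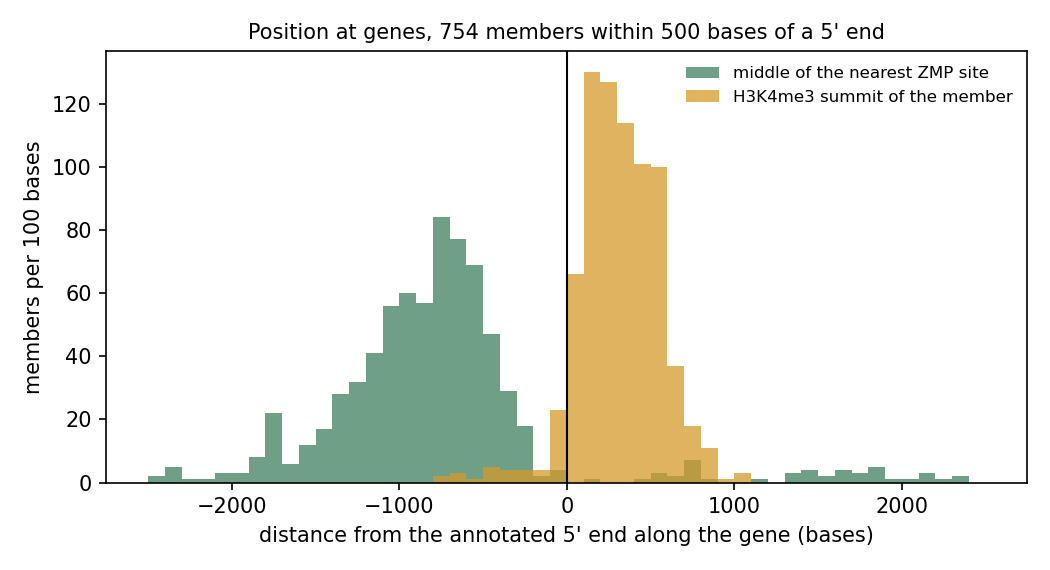
Distance from the annotated 5′ end along the gene, in bases, of the middle of the nearest ZMP site (green) and of the H3K4me3 summit (yellow) for the 754 members within 500 bases of a protein-coding 5′ end, in bins of 100 bases. The site middles have their median at -794.5 bases and the summits at 307.0 bases. Sites farther than 2500 bases are not drawn.

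The members belonged to 686 genes, 68 of which held more than 1 member. Of the 238 members farther than 500 bases from a protein-coding 5′ end, 132 lay over a protein-coding gene, 56 over no annotated gene, 21 over a pseudogene and 9 over a transcribed pseudogene. Of 27 genes of RdDM and DNA methylation, 22 had an H3K4me3 peak at their 5′ end, and of 13 genes of H3K4 methylation 11 had one, against 52.8% of all protein-coding genes. Neither list had a member, and the share of member genes among all arm genes with such a peak is 4.83%, so lists of this length need not hold one. The lists that follow go by the annotated product description, so they need not hold every gene of a family. Ribosomal protein genes made up 13 of the 686 member genes (1.9%, 1.01 to 3.22) and 1.92% of the 14199 arm genes with an H3K4me3 peak. F-box genes, which encode substrate receptors of ubiquitin ligases, made up 10 of the member genes (1.46%, 0.701 to 2.66) and 0.937% of those arm genes. Genes described as a transcription factor made up 8 of the member genes (1.17%, 0.505 to 2.28) and 1.58% of the arm genes. Pentatricopeptide repeat genes, which act in organelle RNA processing, made up 5 of the member genes (0.729%, 0.237 to 1.69) and 1.31% of the arm genes. Receptor-like kinase genes made up 4 of the member genes (0.583%, 0.159 to 1.49) and 0.556% of the arm genes. There were 2 member genes (0.292%) in each of the AGAMOUS-like, disease resistance and hypothetical protein lists. These lists made up 0.204%, 0.458% and 0.479% of the arm genes. Histone and defensin-like genes had none, and only 37 (0.261%) and 4 (0.0282%) of the arm genes were on those lists. The share of all arm genes lay inside the member interval for each of these lists.

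The members lay on every chromosome, with 238 on chromosome 5, 219 on chromosome 1, 200 on chromosome 2, 181 on chromosome 3 and 154 on chromosome 4, or 3.72% to 5.71% of the arm peaks of each. They were placed closer to the pericentromeric windows than other arm peaks were. Of the members, 191 (19.3%, 16.8 to 21.8) had their middle within 1 Mb of such a window, against 4.25% of other arm peaks (3.98 to 4.53) and 16% of the Pol IV-flanking peaks (13.5 to 18.7). The share at a protein-coding 5′ end was 72.3% for members within that 1 Mb, against 64.4% of other peaks there, and 76.9% for members farther away, against 72.1% of other peaks.

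Upstream sequence of the member genes was close in content to that of marked genes in general. In the 200 bases before the 5′ end, TATAAA, searched on both strands like the other motifs, occurred in 39.9% of the 686 member genes (36.3 to 43.7) and in 39.1% of the 14199 arm genes with an H3K4me3 peak. GGGCC, the core letters of a plant promoter element, occurred in 17.1% of member genes (14.3 to 20.1) and 19.5% of the arm genes. AAACCCT occurred in 4.81% of member genes (3.33 to 6.69) and 5.83% of the arm genes, and CACGTG, the G-box, in 4.96% of member genes (3.46 to 6.86) and 6.58% of the arm genes. These matches are letters in a window and say nothing of a bound factor. The median G+C content was 36.3% in the members and 36.5% in other arm peaks, 37.6% in the 778 ZMP sites beside members and 33.5% in the bases between member and site.

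The members carried H3K4me3 at about the level of other arm peaks. Their median fold enrichment over background at the summit was 5.81 (quartiles 3.93 and 10.1), against 5.5 in other arm peaks (quartiles 3.93 and 8.95) and 5.97 in the Pol IV-flanking peaks. Their median width was 292.5 bases (quartiles 174.0 and 504.2), against 271.0 in other arm peaks and 314.5 in the Pol IV-flanking peaks. The 90th percentile of fold enrichment was 19.8 in members, 15.7 in other arm peaks and 17.1 in the Pol IV-flanking peaks. For width it was 751.8 bases in members, 658.0 in other arm peaks and 736.4 in the Pol IV-flanking peaks. The ratio of medians, members over others, was 1.06 for fold enrichment (interval from the order statistics of the members 1 to 1.11) and 1.08 for width (0.989 to 1.17). With sites from ZMP-HA replicate 1 alone they were 1.03 and 0.985. The ratio for fold enrichment was above 1 on chromosomes 1, 2 and 3 (1.14, 1.17 and 1.06) and below 1 on chromosomes 4 and 5 (0.971 and 0.917). Within 1 Mb of the pericentromeric windows the median fold enrichment was 6.44 in members and 5.81 in other peaks, and farther away 5.66 in members and 5.5 in other peaks.

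The members' median fold enrichment of 5.81 and width of 292.5 bases stood beside 4.4 and 199.0 bases in the 367 arm H3K4me3 peaks that shared a base with a ZMP-HA peak of either replicate, 30.5% of which lay at a protein-coding 5′ end. The summits differed less in fragments, with a median of 37 in members and 32 in those peaks, and the upper quartile of the background was 5.37 fragments per base in members and 7.69 in those peaks. Across members, fold enrichment had a Spearman rho of 0.05 and 0.09 with the enrichment of the nearest ZMP site in ZMP-HA replicates 1 and 2 (n = 992 members, which share 1 H3K4me3 library and, in part, sites). Cut into 4 groups of 248 by the strength of the site, the members had a median fold enrichment of 5.34, 5.81, 5.5 and 6.75, weakest to strongest, and 66.1%, 76.6%, 78.2% and 83.1% of them lay at a protein-coding 5′ end.

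**Figure D2:**
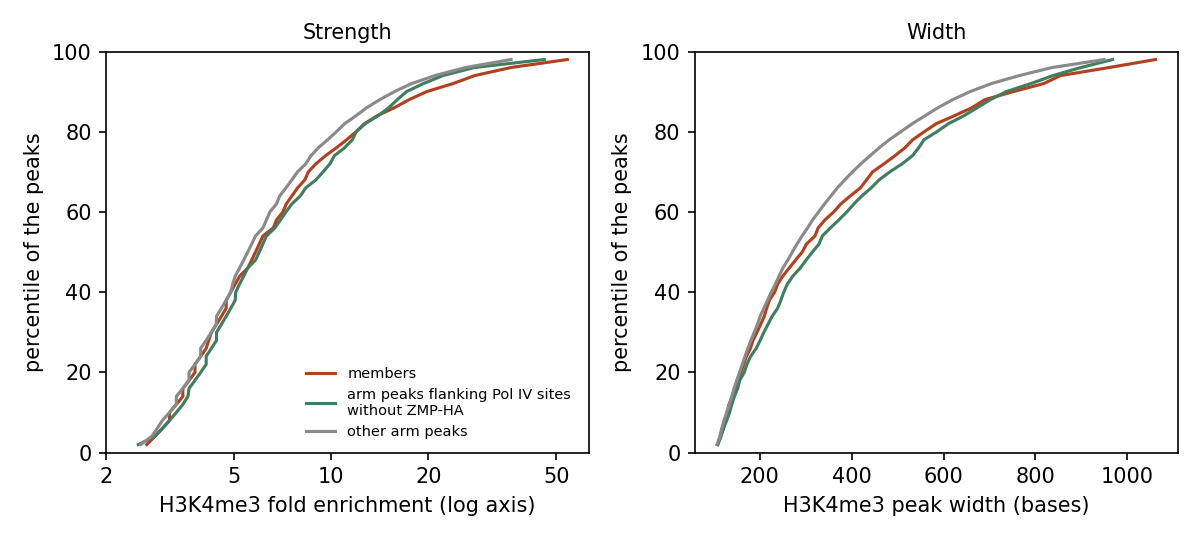
Percentile curves of H3K4me3 fold enrichment (left, log axis) and peak width in bases (right) for the 992 members, the 814 arm peaks flanking Pol IV sites without ZMP-HA, and the 21106 other arm peaks, from the second to the 98th percentile. The members' median of 5.81 and that of other arm peaks of 5.5 lie close together, and the 90th percentiles are 19.8 in members and 15.7 in other arm peaks.

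The strongest members were peaks at gene starts. The summit of AT3G28720, an uncharacterized protein gene, had a fold enrichment of 203.9 from 1843 fragments (Poisson 95% interval 1759.8 to 1929.1), with the peak 767 bases wide and the ZMP site 85 bases away. That of AT5G53800, annotated as a nucleic acid-binding protein, was 116.4, and that of ASE1, an amidotransferase of the first step of purine synthesis, was 94. ELF3, a component of the evening complex of the circadian clock, had 88, and AT2G05920, a subtilase, had 84.5. Their ZMP sites were 329 to 969 bases away apart from the 85 bases at AT3G28720, and each site was wholly upstream of the gene. Low summits were common among members: 389 of 992 (39.2%, 36.2 to 42.3) rested on 30 fragments or fewer, against 41.1% of other arm peaks (40.5 to 41.8), and the median summit held 37 fragments in members and 35 in other arm peaks.

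The members lay beside 778 ZMP sites, of which 587 had 1 member and 191 had 2 or more, with at most 4. The median distance between member and site was 489.5 bases (quartiles 261.8 and 721.5). The site was on the left in 498 and on the right in 494. The H3K4me3 summit lay on the ZMP-facing side of the middle of the peak in 512 members (51.6%, 48.5 to 54.8). The 3 members nearest below the limit of 1 kb were AT1G56300 (1000 bases, fold enrichment 8.95), AT5G09510 (999 bases, 2.83) and AT5G52070 (997 bases, 2.51). The nearest peaks above it were AT5G53140 (1003 bases, 9.58), AT5G66240 (1003 bases, 2.98) and AT3G18350 (1004 bases, 7.54).

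Of the 778 sites, 277 (35.6%) shared a base with a protein-coding gene, 180 (23.1%) with a pseudogene, and 287 (36.9%) with no annotated gene. The sites without an H3K4me3 peak on them numbered 696 of the 778. They were narrower than the 1533 arm ZMP sites that neither held an H3K4me3 peak nor had one within 1 kb (a median of 852.5 bases beside members and 991.0 bases at the 1533 sites). Their median ZMP-HA fold enrichment was 3.11 beside members and 2.58 at the 1533 sites in replicate 1, and 2.79 beside members and 2.29 at the 1533 sites in replicate 2. Sites on a pseudogene were 158 of the 696 (22.7%) and 717 of the 1533 (46.8%). ZMP-HA values chose the sites, so this is a description.

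Members stood on both sides of 82 sites. At 49 of these the genes on the 2 sides ran away from each other, at 7 they ran the same way, and at 26 a side had no member at a protein-coding 5′ end. The 3 with the strongest ZMP-HA signal were the site between CTL2 and AT3G16940 (chr3:5778885-5781356), the site between CYCP3;1 and AT2G45100 (chr2:18593376-18595018) and the site between emb1441 and NFU2 (chr5:20313011-20315150). ZMP-HA fold enrichment there was 15.6 and 17.9, 10.6 and 10.3, and 8.92 and 11.3 in replicates 1 and 2. At the first, the 2472-base site separated a weak peak at CTL2, a chitinase-like protein gene (fold enrichment 2.83, 17 fragments, interval 9.9 to 27.2), from a strong one at AT3G16940, a calmodulin-binding transcription activator (27.8, 176 fragments, interval 151.0 to 204.0). The other members beside the strongest sites were 2 at NADP-ME2, a NADP-malic enzyme (fold enrichment 7.38 and 3.29), and 1 at AT4G23930 (3.14), where the site overlapped the gene downstream of its 5′ end.

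Pol IV, measured as NRPD1-HA, was next to nearly all members in both genotypes. An NRPD1-HA peak lay within 1 kb of 94.6% and 95.4% of members in zmp-2 and of 96.4% and 94.6% in WT, replicates 1 and 2, and the genotypes overlapped. The mean was 95% ± 0.57 in zmp-2 and 95.5% ± 1.28 in WT (SD, n = 2 libraries each), a difference of -0.504 percentage points (exact two-sided permutation p = 1). With 2 libraries against 2, the exact permutation test cannot go below p = 0.333. The difference was 0.403 percentage points without WT replicate 1 and -1.41 without WT replicate 2. Such closeness was also high at other ZMP regions of the arms. Of the 367 arm H3K4me3 peaks on a ZMP-HA peak, 85.6% and 87.7% in zmp-2 and 90.2% and 88% in WT had an NRPD1-HA peak within 1 kb. Of the ZMP sites beside members, 95.4% and 96.3% in zmp-2 and 97.8% and 95.6% in WT had one on them, and of the 1533 arm ZMP sites with no H3K4me3 on them or within 1 kb 83% and 87.1% in zmp-2 and 89.7% and 88% in WT did. Of other arm peaks, 6.33% and 9.65% in zmp-2 and 5.56% and 6.72% in WT had one. In the set A control without a transgene, 1.01% of members had a peak within 1 kb in either replicate.

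Of the 992 members, 924 (93.1%) had an NRPD1-HA peak within 1 kb in both zmp-2 lists, against 11.1% of all arm H3K4me3 peaks. For both WT lists it was 929 members (93.6%, 91.9 to 95.1), against 10.2% of all arm peaks and 4.93% of other arm peaks. All 4 lists had one at 899 members (90.6%), against 9.27% of all arm peaks. The ZMP-HA and NRPD1-HA libraries had separate control libraries, and the methods give the same anti-HA antibody for both. A total of 18 members had none in any list, and these had a median H3K4me3 fold enrichment of 4.48.

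Over the 899 members with a peak in all 4 lists, the median distance to the nearest NRPD1-HA peak was 384.0 and 350.0 bases in zmp-2 and 372.0 and 388.0 bases in WT, a mean difference of -13 bases (exact permutation p = 0.667). The 2 genotypes overlapped. Member by member, the zmp-2 peak of replicate 1 was nearer than the WT peak of replicate 1 at 398 members and farther at 411 (median difference 0 bases), and that of replicate 2 was nearer at 666 and farther at 158 (median -40 bases). Replicate 2 minus replicate 1 had a median of -21 bases within zmp-2 and 11 bases within WT. The zmp-2 replicate 2 list was the longest, with 8655 peaks against 7518 in WT replicate 2, and distances in lists of equal length were not taken. The strongest NRPD1-HA peak within 1 kb had a median fold enrichment of 5.72 and 6.69 in zmp-2 and 7.96 and 5.43 in WT (difference -0.487, exact permutation p = 1). It stood at a median percentile of 83.3 and 81.7 in the zmp-2 lists and 84.3 and 79.1 in the WT lists.

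NRPD1-HA peaks touched a small share of the members. They shared a base with 11.4% and 11.2% of members in zmp-2 and with 12.4% and 9.17% in WT. The means were 11.3% ± 0.143 in zmp-2 and 10.8% ± 2.28 in WT (SD, n = 2 each), a difference of 0.504 percentage points (exact permutation p = 1). It was -1.11 percentage points without WT replicate 2 and 2.12 without WT replicate 1, so its direction rested on 1 WT library. For other arm peaks the values were 0.886% and 1.22% in zmp-2 and 0.877% and 0.848% in WT. In set A, 1 of 992 members was touched in each replicate. Both zmp-2 lists touched 86 members, against 2.28% of all arm peaks, both WT lists touched 78, against 2.26%, and all 4 lists touched 60 (6.05%), against 1.91%.

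**Figure D3:**
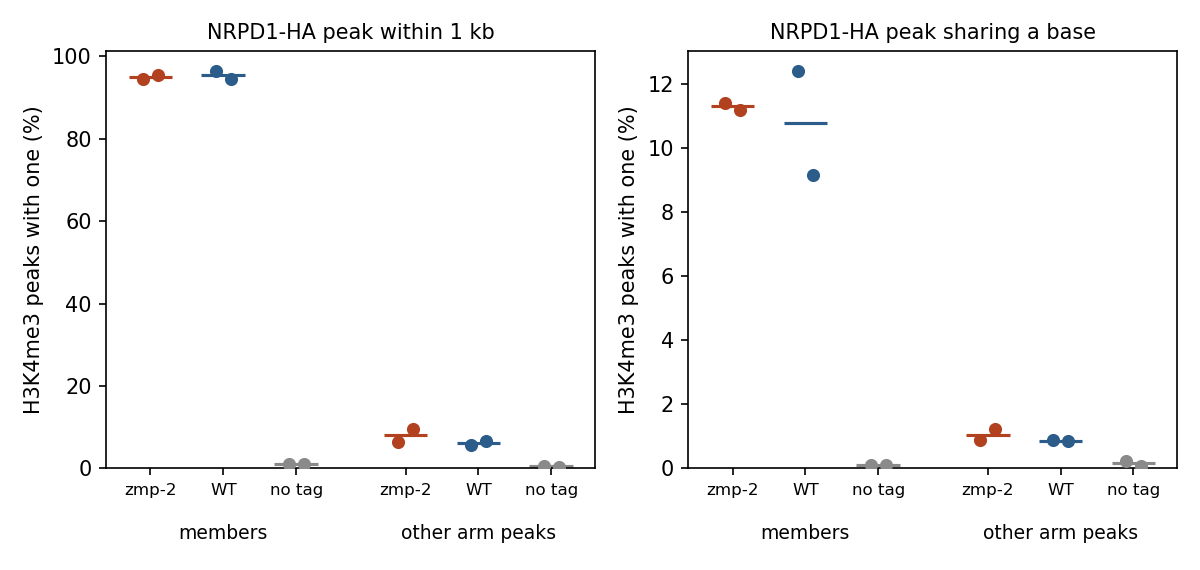
Percent of the 992 members and of the 21106 other arm H3K4me3 peaks with an NRPD1-HA peak within 1 kb (left) or sharing a base (right). Points are libraries, lines their means, in zmp-2, WT and the set A control without a transgene (n = 2 each). Both genotypes lie at 94.6% to 96.4% of members in the left panel.

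Contact was mainly with members close to the ZMP site. Of these sites, 95.4% to 97.8% held an NRPD1-HA peak in each list, and a peak on the site has fewer bases to span to a near member. Whether the fall with distance goes beyond this was not tested. Of the 233 members within 250 bases of their site, 25.3% were touched in both zmp-2 lists and 22.3% in both WT lists. From 251 to 500 bases (n = 276) it was 4.71% in zmp-2 and 3.62% in WT, from 501 to 750 bases (n = 260) 1.92% in zmp-2 and 2.31% in WT, and from 751 to 1000 bases (n = 223) 4.04% in zmp-2 and 4.48% in WT. The 5 members touched in both WT lists by the strongest NRPD1-HA peaks were at CTL2, AT2G05290, AT3G50030, VPS60.2, an SNF7-family protein gene, and ROC3, a cyclophilin. At ROC3 the peak on the member had a fold enrichment of 62.4 and 139.9 in zmp-2 and 138.6 and 178.3 in WT. At AT3G50030 it had 108.3 and 227.6 in zmp-2 and 196.3 and 201.9 in WT, and at these 2 members the genotypes overlapped. At AT2G05290 it had 80.5 and 162.3 in zmp-2, below the 196.4 and 203.5 in WT. At VPS60.2 it had 190.8 and 179.4 in WT and 87.7 in zmp-2 replicate 1, and the peak of zmp-2 replicate 2 did not touch the member. The 5 members were picked by their WT values, which favours high values in WT. At CTL2 the WT peaks reached the member (210.5 and 222.4), and the zmp-2 peaks of 89.7 and 187.3 ended 735 and 619 bases short of it.

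**Figure D4:**
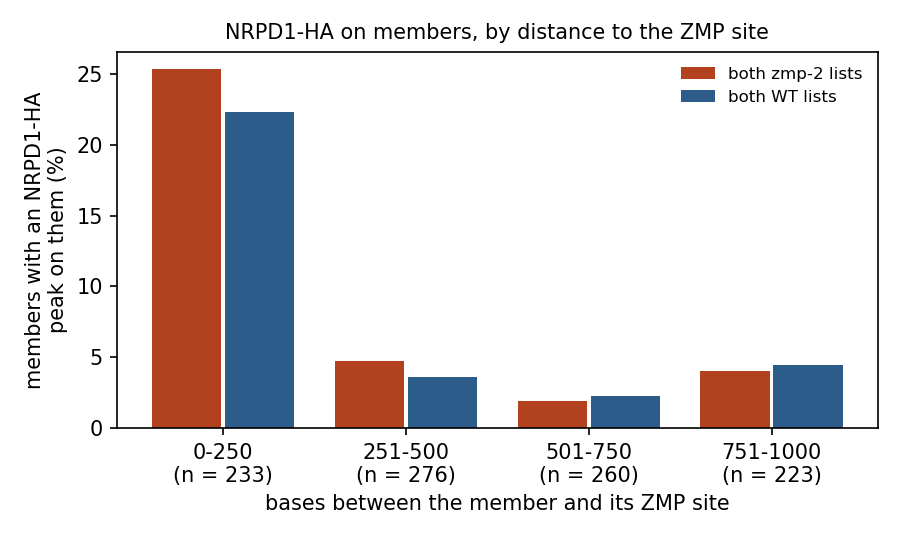
Percent of members with an NRPD1-HA peak sharing a base in both zmp-2 lists (red) and both WT lists (blue), by the number of bases between the member and its ZMP site. Members within 250 bases stand at 25.3% in zmp-2 and 22.3% in WT, and the other distances at 1.92% to 4.71%.

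Calls that differed between genotypes were few. Of the members, 5 (0.504%) had an NRPD1-HA peak within 1 kb in both zmp-2 lists and in neither WT list, against 0.917% of all arm peaks. Another 8 (0.806%) had one in both WT lists and in neither zmp-2 list, against 0.205% of all arm peaks. On the member itself, 9 were touched in both zmp-2 lists and in neither WT list (0.907%, against 0.178% of all arm peaks) and 8 the other way round (0.806%, against 0.0979%). These shares count every peak, and most arm peaks had no NRPD1-HA peak that could differ. Of other arm peaks, 89.4% had none within 1 kb in any list, against 1.81% of members. On the peak itself, 98.5% of other arm peaks had none, against 83.3% of members. Shares among peaks that have a call were not taken, so whether members differ from other arm peaks there was not tested. For the calls within 1 kb, the distance to the nearest peak of the other genotype was taken to 10000 bases.

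Among the 5 members called in zmp-2 only, 4 had a WT peak just past the limit. The nearest peak was 931 and 889 bases away in zmp-2 and 1015 and 1026 bases in WT at BGAL8, a beta-galactosidase. At AT4G05090, an inositol monophosphatase family gene, it was 790 and 811 bases in zmp-2 and 1009 and 1004 in WT, at PUT5, a polyamine uptake transporter, 969 and 981 in zmp-2 and 1022 and 1060 in WT, and at SQD2, of sulfolipid synthesis, 983 and 917 in zmp-2 and 1016 and none in WT. At the member over SADHU5-1, a retroelement-derived locus, the zmp-2 peaks were 268 and 309 bases away with a fold enrichment of 4.17 and 4.94, and the WT peaks 3173 and 3158 bases away. Its ZMP site, 48 bases from the member, held no WT NRPD1-HA peak.

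Of the 8 members called in WT only, 7 at 4 ZMP sites were at least 3238 bases from any zmp-2 peak, and 0 of the 7 were within 1 kb of a peak without a transgene. PKP-ALPHA, the alpha subunit of plastid pyruvate kinase, and ARFC1, a small GTPase, are divergent genes on the 2 sides of the site at chr3:8138534-8138935. The site's NRPD1-HA fold enrichment was 5.65 and 5.12 in WT, and the nearest zmp-2 peaks were 5777 and 5661 bases from the PKP-ALPHA member. The members at ILA, which encodes a HEAT-repeat protein of plant immunity, and AT1G64795 shared a site with 13.9 and 5.76 in WT, and no zmp-2 peak lay within 10000 bases. At SKP1, a core subunit of SCF ubiquitin ligases with 2 members at 1 site, the WT values were 4.65 and 3.21. At PFD1, a prefoldin subunit, they were 1.92 and 1.86. The eighth, SOS1, a plasma membrane sodium-proton antiporter, had zmp-2 peaks at 1027 and 1067 bases, against 875 and 886 bases in WT. These absences are of calls, not of signal, and reads were not analysed here.

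**Figure D5:**
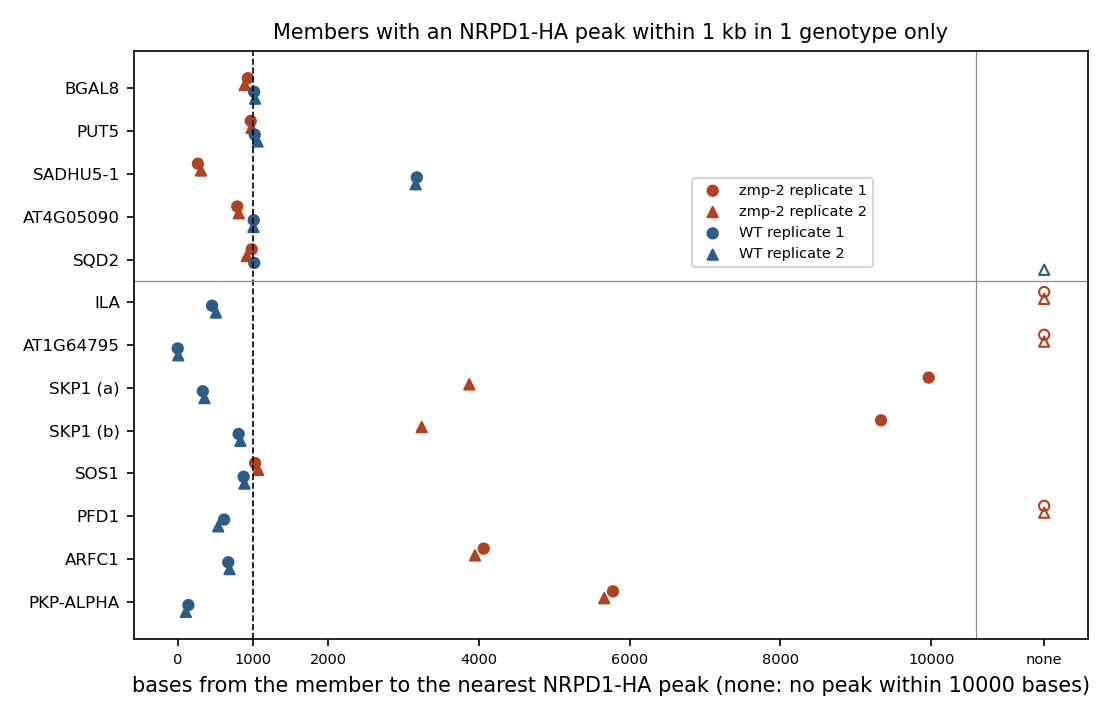
Bases from the member to the nearest NRPD1-HA peak in each of the 4 lists (red, zmp-2; blue, WT; circles and triangles, replicates 1 and 2) for the 5 members called within 1 kb in both zmp-2 lists only (top) and the 8 called in both WT lists only (bottom). The dashed line is the 1 kb limit, and open marks at "none" mean no peak within 10000 bases. The 2 members at SKP1 are marked a and b.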

How the data were processed

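The study deposited ChIP-seq peak lists of 11 immunoprecipitates, and their 11 inputs entered through peak calling only. As described by the study, the authors adapter-trimmed the paired reads (Trim Galore 0.4.3), aligned them to TAIR10 (Bowtie2 2.2.9) and called peaks with MACS2 2.2.6 against input, 1 list per library. Which input served which library is not given in the sources used here. The deposited lists hold, per peak, the authors' fold enrichment (a ratio at the summit), −log10 p-value, −log10 q-value and summit position. The largest q-value in the deposited lists was 0.0494. A list holds calls, so a missing peak can be signal under the threshold, and deeper libraries can call weaker enrichment. No read-based test such as DiffBind could be run.

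Fragments at the summit were rebuilt from fold enrichment, (pileup + 1)/(background + 1), and the Poisson p-value; this gave back the deposited p-value to within 1% at 100% of H3K4me3 peaks. Lists were merged where peaks shared a base. Pericentromeric windows were 13.1 to 16.7, 3.8 to 6.1, 11.3 to 15.9, 2.7 to 5.6 and 10.1 to 13.9 Mb of chromosomes 1 to 5. WT Pol IV sites were merged NRPD1-HA regions with a peak in both WT replicates and no set A peak. Genes were those of RefSeq TAIR10.1, where 0 peaks ran past a chromosome end, and transposon annotation was not used here. Exact permutation tests over libraries and exact binomial (Clopper-Pearson) intervals at 95% were computed with Python 3.11.15 and scipy 1.17.1. The interval and depth code was tested on simulated data. Members, gene lists and tests were chosen with earlier results of these data known. Named members were the 5 strongest by H3K4me3; the 5 at the strongest ZMP sites; the 5 strongest called near NRPD1-HA in 1 genotype only (per genotype); the 5 touched most strongly in WT; the 3 strongest sites with members on both sides; and those nearest the 1 kb limit. SKP1 and PFD1 were named after their values were seen, as were the printed windows. Alternatives were thresholds, overlap rules, distances, control removal and left-out libraries.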

Additional observations from a re-analysis of the deposited data

How the results depend on the processing

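Of 128 values under alternatives, 113 stayed close to the reported ones. For shares and ratios this means within the binomial interval of the reported value, and for the count within 1.5 times. The differences between zmp-2 and WT have no interval, and the 17 (within 1 kb) and 18 (on the member) counted as close kept only their sign. The number of members was 509 within 500 bases and 1676 within 2 kb of a ZMP site, against 992 within 1 kb, and 778 to 1210 under the other rules. The share with an NRPD1-HA peak within 1 kb in both WT lists was 95.7% within 500 bases and 63.8% within 2 kb. The share at a protein-coding 5′ end was 69.3% within 2 kb, and 85.2% with the 5′ end within 1000 bases. The share with the ZMP site upstream was 85.3% within 2 kb. The difference between zmp-2 and WT in the share within 1 kb was 0.0597 percentage points within 2 kb, against -0.504.

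Leaving out single libraries moved some values. With one library out at a time, the number of members was 992 to 1210. The difference between zmp-2 and WT was -1.41 to 0.403 percentage points within 1 kb and -1.11 to 2.12 on the member. The share with NRPD1-HA in both WT lists was 89.4% to 96.4%, the highest with WT replicate 1 alone. The share at a 5′ end was 72.6% to 76.1%, the share with the ZMP site upstream 90.4% to 92.6%, and the width ratio 0.985 to 1.08, each lowest without ZMP-HA replicate 2.
Fold enrichment ratios and the summit share did not move beyond their intervals under any of their 12 alternatives each.

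With replicate number as a block, the paired differences were -0.504 (within 1 kb) and 0.504 percentage points (on the member), with exact sign-flip p-values of 1 for both, where the smallest possible is 0.5. With 2 numbered pairs, the labels do not show that the numbers pair the libraries. Keeping only the member nearest to each ZMP site, an alternative chosen after seeing the data, changed no direction. Of members, 39.2% rested on 30 fragments or fewer, against 41.1% of other arm peaks, which limits the precision of their fold enrichment.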
